A study of Mus musculus with 16 samples.

Results

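The effect of adding extracellular vesicles to RANKL for 72 h was examined in RAW264.7 cells, a mouse macrophage line that serves as an osteoclast precursor. The 4 libraries of this comparison were taken by their labels from the 16 RNA-seq libraries of the series. In the EV+RANKL group, 2 libraries came from cells given vesicles (EV) of PC3M, a metastatic human prostate cancer line, at 30 µg/mL together with recombinant mouse RANKL, fused to GST, at 10 ng/mL for 72 h. In the RANKL group, 2 libraries came from cells given the same RANKL alone for 72 h, so RANKL was present in both groups. Side by side with these stand the groups at 72 h without RANKL (EV and PBS, the saline control) and the groups at 48 h, with 2 libraries each (n = 2 per group throughout). All libraries came from 1 cell line, and a vesicle preparation of a cell without cancer was not analysed here.

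RANKL is the ligand of the receptor RANK on cells of the macrophage lineage. Its signal passes through TRAF6, NF-kB and AP-1 to NFATc1, the transcription factor that directs osteoclast formation, and interferon signalling is a known brake on this process. Osteoclasts fuse into large cells, pump acid onto bone with a vacuolar proton pump (V-ATPase), and digest the matrix with cathepsin K. Tumour vesicles are studied for their part in the bone lesions of prostate cancer.

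Levels are given in RPKM, a read number divided by gene length and by the reads of the library, after undoing the log2(RPKM + 1) of the deposited table. Differences and standard errors (SE) are on the log2(RPKM + 1) scale, as EV+RANKL minus RANKL, and understate changes of genes near or below 1 RPKM. Depth was estimated at 18.4 M to 20 M reads (M, mega) in each library. A gene was called when its adjusted p in limma (Benjamini-Hochberg over 10365 genes) was below 0.05. No label states that the libraries within a group are separate cultures. The p-values therefore reflect the spread between samples alone, and that spread may be technical. The spread of a gene was pooled over all 8 groups, 16 libraries in all. The RANKL libraries of 72 h differed more than those of any other group, so the pooled SE may be too small for this comparison. These are bulk libraries, so fewer cells of a type and less RNA per cell cannot be told apart.

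Both groups carried osteoclast and macrophage transcripts. Acp5, which encodes the osteoclast phosphatase TRAP, reached 663 and 435 RPKM in EV+RANKL libraries, against 166 and 309 RPKM in RANKL libraries, while PBS libraries of 72 h had 0.642 and 0.437 RPKM. Csf1r, the receptor for the macrophage growth factor M-CSF, had 349 and 310 RPKM in EV+RANKL libraries, against 232 and 273 RPKM in RANKL libraries. Most listed macrophage genes went the other way: of 17 tested, 3 differences were positive, that of Csf1r among them, and 14 were negative. The calcitonin receptor Calcr, a marker of mature osteoclasts, stayed at 0.133 RPKM or less in these 4 libraries. The table listed 7 of 14 epithelial or carcinoma cell markers, none of which passed the filter, and the highest, Met, reached 0.252 RPKM. With no filter 2 of the 7 were called higher, Met and Krt7, which are named after their values were seen. Met, a growth factor receptor, had 0.252 and 0.197 RPKM in EV+RANKL libraries, against 0.0472 and 0.085 RPKM in RANKL libraries (difference 0.20 ± 0.0266 SE, adjusted p = 0.0107, limma with no filter). Krt7, a keratin, had 0.0577 and 0.0591 RPKM in EV+RANKL libraries and was listed at 0 in both RANKL libraries (adjusted p = 0.027, limma with no filter). One read in a 1 kb transcript is worth 0.05 to 0.0544 RPKM, so few reads stand behind these values. The summed level of the 7 markers was 0.381 and 0.304 RPKM in EV+RANKL libraries and 0.0472 and 0.110 RPKM in RANKL libraries, with 3 of the 7 at 0. It listed 9 of 14 stromal and bone-forming cell markers, none of which passed, with Runx2 highest at 0.27 RPKM. For other blood cells it listed 10 of 16 markers, of which 3 were tested and none was called. Their summed level was 18.1 and 11.9 RPKM in EV+RANKL libraries, against 5.05 and 8.30 RPKM in RANKL libraries, with Cd83 the highest at 14.1 RPKM and 3 at 0. Their part in the results was not tested.

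The RANKL libraries differed widely from each other. The difference between them had an SD of 0.306 over the tested genes on the log2 scale, against 0.187 between the EV+RANKL libraries, and 79 genes differed by 1 or more, against 14. In the other 6 groups the SD ran from 0.159 to 0.29, the latter in EV libraries of 72 h. At 72 h 55 genes differed by 1 or more between the EV libraries and 63 between the PBS libraries. RANKL replicate 2 carried more of several osteoclast transcripts. Dcstamp, a membrane protein needed for cell fusion, had 22.5 and 19.9 RPKM in EV+RANKL libraries, against 4.73 RPKM in RANKL replicate 1 and 16.6 RPKM in RANKL replicate 2. Replicate 1 carried more of C5ar1, the complement C5a receptor, at 23.9 RPKM, against 7.49 RPKM in replicate 2. Replicate 2 also held more non-coding RNA, with Rn18s-rs5, a ribosomal RNA copy, at 743 RPKM, against 75.8 RPKM in replicate 1. Mitochondrially encoded genes took 26% and 25% of the summed RPKM in EV+RANKL libraries, against 26.9% and 24.2% in RANKL replicates 1 and 2. Cytosolic ribosomal protein genes took 11.2% and 11% in EV+RANKL libraries, against 9.4% and 11%. The part of these differences in the results was not tested.

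Vesicles on top of RANKL changed 190 of 10365 genes (1.83%), of which 135 rose (1.3%) and 55 fell (0.531%). Among those that rose were Acp5 and Slc9b2 of the resorption machinery, the TGF-beta receptor Tgfbr1 and the secreted protein Angptl2. Among those that fell were 10 of the listed interferon-stimulated genes and the myeloid receptor Cd300ld. At least 1 log2 unit separated the groups in 31 of the genes that rose and 11 of those that fell. At an unadjusted p below 0.05 there were 2185 genes (21.1%). Both EV+RANKL libraries lay above both RANKL libraries in 2156 genes (20.8%) and below both in 2857 (27.6%). A fit of the 4 compared libraries alone called 8 genes, and weights per library in the full fit left 9.

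The number of calls depended on which RANKL library was present. Without RANKL replicate 1, the fit called 9 genes (0.0868%), 7 of them among the 190, and without RANKL replicate 2 it called 1815 (17.5%), which included all 190. Without EV+RANKL replicate 1 it called 5 genes (0.0482%), and without EV+RANKL replicate 2 it called 50 (0.482%). All 190 kept their sign in each of these 4 fits. This was fixed beforehand, since none of the 190 overlapped between groups. In every one of them 4 genes were called: Angptl2, Rab15, Cd300ld and a predicted gene. RANKL replicate 2 lay between RANKL replicate 1 and the EV+RANKL mean in 129 of the 135 genes that rose (95.6%) and 53 of the 55 that fell (96.4%), compared with 46.8% of all tested genes. These genes were called on the same values, so this is a description. The median difference of the genes that rose was 0.87 against replicate 1 and 0.56 against replicate 2, and that of the genes that fell was -0.90 and -0.58.

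**Figure D1:**
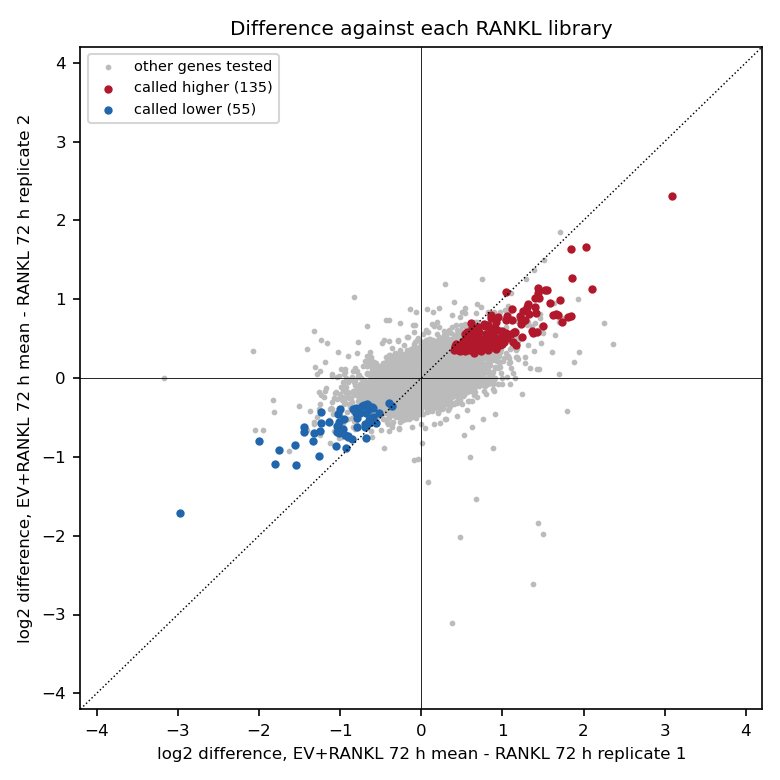
Each point is 1 of 10365 tested genes, with the log2 difference of the EV+RANKL mean at 72 h from RANKL replicate 1 on the horizontal axis and from RANKL replicate 2 on the vertical axis; the dotted line marks equal differences. Most of the 135 genes called higher lie below the line and most of the 55 called lower lie above it, with medians of 0.87 and -0.90 against replicate 1 and 0.56 and -0.58 against replicate 2.

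The genes that rose most, by a rule on size, level and separation of the libraries, included Rab15, Angptl2, Slc9b2, Csf2rb2, Rufy4, Slc6a8, Slc37a2, Cd109 and Acp5. Rab15, a small GTPase of endosomes, had 10.7 and 8.46 RPKM in EV+RANKL libraries, against 1.57 and 2.33 RPKM in RANKL libraries. Both EV+RANKL libraries stood well above both RANKL libraries, with a difference of 1.85 ± 0.153 (SE; adjusted p = 1.43e-04, limma). Angptl2, a secreted protein that resembles the angiopoietins, had 13.9 and 11.7 RPKM in EV+RANKL libraries, against 2.84 and 3.42 RPKM in RANKL libraries. Here the RANKL libraries lay close together, and the difference was 1.74 ± 0.13 (SE; adjusted p = 8.05e-05, limma).

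Slc9b2, a sodium/proton exchanger that osteoclasts make in response to RANKL, had 17.9 and 12 RPKM in EV+RANKL libraries, against 2.63 and 6.19 RPKM in RANKL libraries. Each EV+RANKL library was above each RANKL library, with RANKL replicate 2 the higher of the pair, and the difference was 1.62 ± 0.272 (adjusted p = 0.0221, limma). Csf2rb2, a beta chain of the mouse IL-3 receptor, had 12.5 and 10.9 RPKM in EV+RANKL libraries, against 2.87 and 5.37 RPKM in RANKL libraries. Slc6a8, the creatine transporter, had 28.6 and 19.3 RPKM in EV+RANKL libraries, against 7.51 and 10.3 RPKM in RANKL libraries. Slc37a2, a sugar phosphate exchanger, had 94.3 and 68.3 RPKM in EV+RANKL libraries, against 22.2 and 46.3 RPKM in RANKL libraries. None of these overlapped between groups, and their differences were 1.35, 1.32 and 1.29. Rufy4, an adaptor protein that takes part in autophagy, rose by 1.33 and reached 15.5 and 10.4 RPKM in EV+RANKL libraries, against 3.69 and 5.35 RPKM in RANKL libraries.

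Cd109, a surface protein that binds TGF-beta, had 31.5 and 26.1 RPKM in EV+RANKL libraries, against 9.9 and 12.5 RPKM in RANKL libraries. Its difference of 1.29 ± 0.162 (adjusted p = 0.00417, limma) came with RANKL libraries that were close to each other. Tgfbr1, the type I TGF-beta receptor, had 21.6 and 18.9 RPKM in EV+RANKL libraries, against 8.77 and 10.5 RPKM in RANKL libraries, a difference of 1.0 ± 0.192 (adjusted p = 0.0272, limma). Of 18 tested genes of the TGF-beta and BMP pathway, these 2 rose and none fell, and the median was 0.00. Over all tested genes 1.3% rose and 0.531% fell. Plau, the urokinase-type plasminogen activator, had 87.7 and 71.1 RPKM in EV+RANKL libraries, against 25 and 44.8 RPKM in RANKL libraries, a difference of 1.21 ± 0.226 (adjusted p = 0.0241, limma). B4galt1, a galactosyltransferase, rose by 0.77 ± 0.146 (adjusted p = 0.0259, limma). A list of 18 genes that vesicles moved at 48 h in earlier results of these data had 7 members that rose and 4 that fell, which is not independent evidence of their direction.

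Of the resorption machinery, 3 of 19 tested genes rose and none fell. The tartrate-resistant phosphatase Acp5, whose levels are given above, rose by 1.24 ± 0.258 (adjusted p = 0.033, limma). Slc4a2, the chloride/bicarbonate exchanger that balances acid secretion, had 22.8 and 18.8 RPKM in EV+RANKL libraries, against 8.64 and 15.2 RPKM in RANKL libraries, a difference of 0.79 ± 0.18 (adjusted p = 0.0449, limma). Slc9b2 was the third. In 15 of the 19 genes both EV+RANKL libraries lay above both RANKL libraries, and 17 of the differences were positive. Over all tested genes 1.3% rose, 20.8% had both libraries above both and 46.5% of the differences were positive. The list's median was 0.61, against -0.02 for all tested genes, and it was 0.86 against RANKL replicate 1 and 0.42 against RANKL replicate 2. The count of genes that rose was 0 without RANKL replicate 1, 12 without RANKL replicate 2, 0 without EV+RANKL replicate 1 and 2 without EV+RANKL replicate 2.

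The protease and the chloride/proton exchanger of the resorbing surface did not pass the test. Ctsk, cathepsin K, had 413 and 249 RPKM in EV+RANKL libraries, against 66.4 and 196 RPKM in RANKL libraries. RANKL replicate 2 lay near the lower EV+RANKL library, and the difference of 1.48 ± 0.494 had an adjusted p of 0.126 in limma. Clcn7, the lysosomal chloride/proton exchanger, had 20.1 and 13.8 RPKM in EV+RANKL libraries, against 5.75 and 10.7 RPKM in RANKL libraries (adjusted p = 0.0527, limma). Src, the kinase needed for the ruffled border, had 22.2 and 15.7 RPKM in EV+RANKL libraries, against 5.94 and 12.2 RPKM in RANKL libraries (adjusted p = 0.0529, limma). In all 3 genes the EV+RANKL libraries lay above both RANKL libraries, with RANKL replicate 1 the farther. Mmp9, a gelatinase of osteoclasts, had 22.1 and 8 RPKM in EV+RANKL libraries, against 8.97 and 14.8 RPKM in RANKL libraries, so its groups overlapped (adjusted p = 0.788, limma).

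Of 15 V-ATPase subunits, 1 rose and none fell. Atp6v1g1, a subunit of the stalk of the pump, had 188 and 153 RPKM in EV+RANKL libraries, against 75.9 and 113 RPKM in RANKL libraries, a difference of 0.87 ± 0.17 (adjusted p = 0.0288, limma). Atp6v1a, the catalytic subunit, had 152 and 124 RPKM in EV+RANKL libraries, against 65.3 and 95.4 RPKM in RANKL libraries (adjusted p = 0.0706, limma). Both EV+RANKL libraries exceeded both RANKL libraries in 13 of the 15, against 20.8% of all tested genes, of which 1.3% rose. The list's median was 0.47, and it was 0.74 against RANKL replicate 1 and 0.25 against RANKL replicate 2. Without RANKL replicate 2 the count was 12, and without any 1 of the other 3 libraries it was 0.

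**Figure D2:**
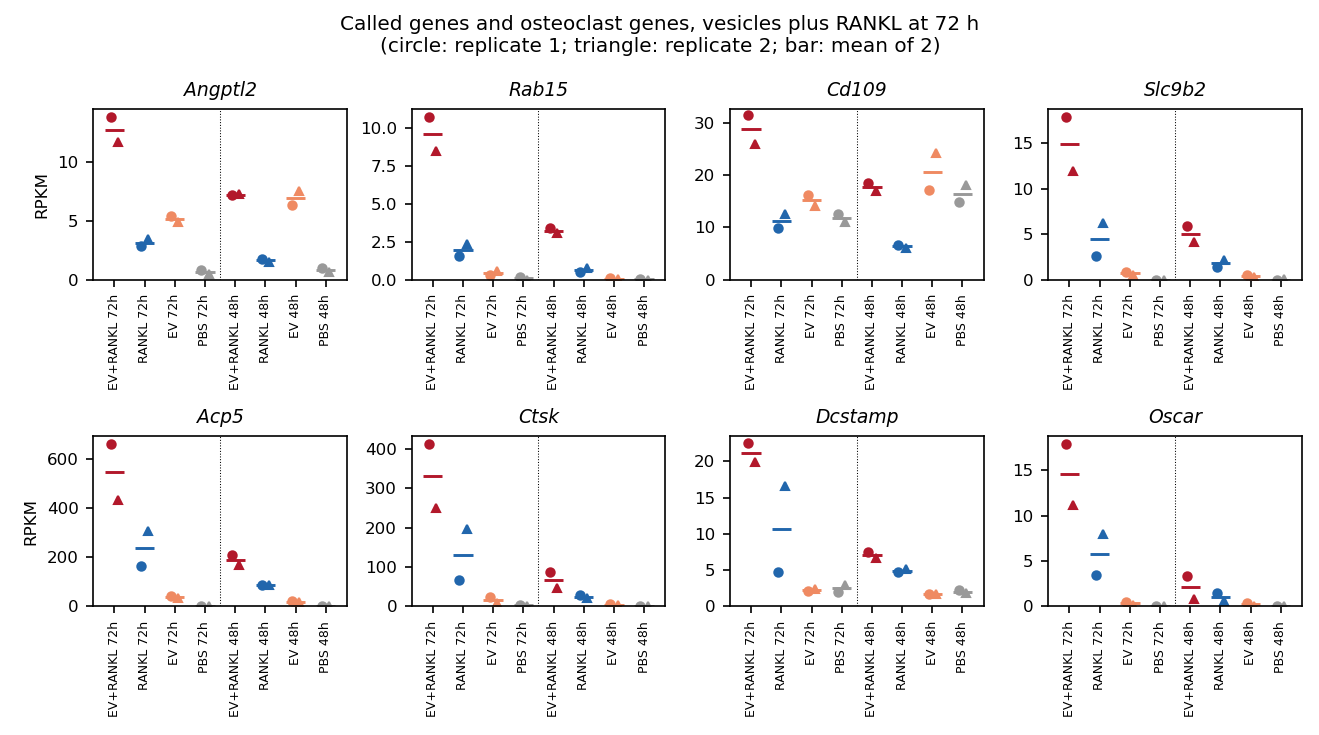
RPKM of 8 genes in all 8 groups, with circles for replicate 1, triangles for replicate 2 and bars for the mean of both; groups at 72 h are left of the dotted line and groups at 48 h right of it. Ctsk, Dcstamp and Oscar were not called. The RANKL libraries at 72 h lie close together for Angptl2 (2.84 and 3.42 RPKM) and far apart for Ctsk (66.4 and 196 RPKM) and Dcstamp (4.73 and 16.6 RPKM).

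Of 18 tested genes of cell fusion and costimulation, none was called in either direction, and the median was 0.28. With 5 in place of 1 added to the RPKM before the log, and all libraries present, 2 members were called higher. Among the fits with 1 library left out, members were called higher only without RANKL replicate 2. That fit also called many more of all tested genes. The median was 0.21 without RANKL replicate 1, 0.33 without RANKL replicate 2 and 0.37 without EV+RANKL replicate 2. The median was 0.18 without EV+RANKL replicate 1. Dcstamp, with the levels above, had a difference of 1.14 ± 0.345 (adjusted p = 0.105, limma). Ocstamp, its partner in fusion, had 21.9 and 22.3 RPKM in EV+RANKL libraries, against 8.54 and 18.1 RPKM in RANKL libraries (adjusted p = 0.0855, limma). Oscar, a collagen receptor that signals beside RANK, had 17.9 and 11.2 RPKM in EV+RANKL libraries, against 3.48 and 8 RPKM in RANKL libraries (adjusted p = 0.113, limma). In each of these the EV+RANKL libraries were above both RANKL libraries, and RANKL replicate 2 was the nearer of the pair. Atp6v0d2, a V-ATPase subunit that takes part in fusion, had 313 and 226 RPKM in EV+RANKL libraries, against 106 and 162 RPKM in RANKL libraries (adjusted p = 0.11, limma).

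The receptor and the central transcription factor of the pathway were not called. Tnfrsf11a, which encodes RANK, had 24.3 and 28.8 RPKM in EV+RANKL libraries, against 25.2 and 29 RPKM in RANKL libraries, and its groups overlapped (difference -0.03 ± 0.202, adjusted p = 0.945, limma). Of 22 RANK signalling components none was called, and their median was 0.00. Nfatc1 had 129 and 125 RPKM in EV+RANKL libraries, against 90.7 and 110 RPKM in RANKL libraries (difference 0.34 ± 0.165, adjusted p = 0.257, limma). Where 1.3% of all tested genes rose and 0.531% fell, 1 of 20 osteoclast transcription factors rose and none fell. It was Fosl2, the AP-1 member Fra-2, with 82.2 and 79.4 RPKM in EV+RANKL libraries, against 36.2 and 58.5 RPKM in RANKL libraries (difference 0.80 ± 0.174, adjusted p = 0.04, limma). Jdp2, an AP-1 repressor with a part in osteoclast formation, had 121 and 122 RPKM in EV+RANKL libraries, against 76.3 and 98.4 RPKM in RANKL libraries (adjusted p = 0.0906, limma).

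Among 17 tested brakes on osteoclast formation, 1 fell and none rose, against 0.531% and 1.3% of all tested genes, and the median was 0.00. It was Lgals9, which encodes the secreted lectin galectin-9, with 3.12 and 2.73 RPKM in EV+RANKL libraries, against 12.3 and 6.39 RPKM in RANKL libraries. Each EV+RANKL library was below each RANKL library, and the difference was -1.34 ± 0.209 (adjusted p = 0.017, limma). Irf8, a repressor of Nfatc1, had 2.57 and 1.27 RPKM in EV+RANKL libraries, against 3.39 and 1.4 RPKM in RANKL libraries, with overlap between the groups (adjusted p = 0.709, limma).

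Interferon-stimulated genes, which make cells resist viruses, were lower in EV+RANKL libraries. Of 23 tested, 10 fell and none rose (Rtp4, Irf7, Ifi44, Oas2, Ddx58, Parp14, Dhx58, Oas1a, Oas3 and Irf9). In 23 of 23 both EV+RANKL libraries lay below both RANKL libraries, and the median difference was -0.59. Over all tested genes 0.531% fell and 27.6% had both libraries below both. Against RANKL replicate 1 alone the median was -0.84 and against replicate 2 alone -0.72, both farther from 0, because different genes stand at the middle of each order. The summed level of the list was 92.4 and 86.4 RPKM in EV+RANKL libraries, against 180 and 169.9 RPKM in RANKL libraries. The calls of this list depended on which libraries were present, and few or none remained without RANKL replicate 1 or without either EV+RANKL library. Of the 23 genes, 0 were called in a fit of the 8 libraries of 72 h alone and 0 with weights per library. A fit of the 4 compared libraries alone called 1. The median was -0.72 without RANKL replicate 1 and -0.84 without RANKL replicate 2. It was -0.67 without EV+RANKL replicate 1 and -0.56 without EV+RANKL replicate 2. All 23 differences stayed negative in each of these fits, which the lack of overlap fixes beforehand.

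Rtp4, a chaperone of receptors that interferon induces, had 2.78 and 2.15 RPKM in EV+RANKL libraries, against 26 and 10.3 RPKM in RANKL libraries. Irf7, the transcription factor that amplifies interferon production, had 2.58 and 1.5 RPKM in EV+RANKL libraries, against 9.44 and 5.36 RPKM in RANKL libraries. Both were lower in each EV+RANKL library than in each RANKL library, with RANKL replicate 1 the higher. The differences were -2.34 ± 0.37 for Rtp4 (adjusted p = 0.0171, limma) and -1.44 ± 0.273 for Irf7 (adjusted p = 0.0258, limma). Ifi44, an interferon-induced protein, had 1.72 and 1.66 RPKM in EV+RANKL libraries, against 6.83 and 4.75 RPKM in RANKL libraries. Oas2, an enzyme that senses double-stranded RNA, had 7.73 and 7.22 RPKM in EV+RANKL libraries, against 20.4 and 13.7 RPKM in RANKL libraries. Ddx58, the RNA sensor RIG-I, had 2.32 and 2.62 RPKM in EV+RANKL libraries, against 6.18 and 5.31 RPKM in RANKL libraries. These did not overlap either, and the differences were -1.32 for Ifi44, -1.07 for Oas2 and -0.96 for Ddx58. Oas1a had 11.6 and 10.5 RPKM in EV+RANKL libraries, against 21.4 and 19.1 RPKM in RANKL libraries. Oas3 had 5.47 and 5.58 RPKM in EV+RANKL libraries, against 10.8 and 10.1 RPKM in RANKL libraries. For these RNA sensors of the same family the RANKL libraries were close to each other. Irf9, the DNA-binding part of the ISGF3 complex, fell by 0.59 ± 0.118 (adjusted p = 0.0297, limma). Reads of Oas family members, of Lyz1 and Lyz2, and of Csf2rb2 and its close paralog may be shared, and how the authors assigned such reads is not given in the sources used here.

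The promoters of genes that fell are shown because interferon-activated complexes bind a repeated GAAA element in such genes. The ISRE-like letters, GAAA followed by 2 bases of any kind and GAAA again, were searched on both strands in the 250 bases before the gene's start in the RefSeq table of GRCm38.p6. Of the 55 genes that fell 44 had a promoter in that table and 7 of these held the letters (15.9%), against 2 of 111 genes that rose (1.8%), 205 of 7798 tested genes with a promoter (2.63%) and 821 of all 27025 (3.04%). Of the listed interferon-stimulated genes tested, whether called or not, 15 had a promoter and 7 of these held the letters (46.7%). Of the 10 that fell, 6 had a promoter and 2 of these held the letters (33.3%), Oas1a and Oas3. Only promoters with a match are printed below. A match describes letters and not a site in use. The sequences below run 5′ to 3′ on the gene's own strand and end at the base before the start. Capitals mark these letters or their reverse complement. In Oas1a (chr5:120907526-120907775, minus strand) a pair of overlapping matches begins 20 and 14 bases before the start. In Oas3 (chr5:120777660-120777909, minus strand) the match begins 75 bases before the start, and in Lgals9 (chr11:78984925-78985174, minus strand) 55 bases before it. Cybb (chrX:9469325-9469574, minus strand) has 3 matches.
Oas1a: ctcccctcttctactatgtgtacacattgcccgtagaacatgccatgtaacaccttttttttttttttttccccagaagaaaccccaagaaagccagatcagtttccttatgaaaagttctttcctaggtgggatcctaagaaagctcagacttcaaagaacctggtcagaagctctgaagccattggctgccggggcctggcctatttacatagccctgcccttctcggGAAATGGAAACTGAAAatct
Oas3: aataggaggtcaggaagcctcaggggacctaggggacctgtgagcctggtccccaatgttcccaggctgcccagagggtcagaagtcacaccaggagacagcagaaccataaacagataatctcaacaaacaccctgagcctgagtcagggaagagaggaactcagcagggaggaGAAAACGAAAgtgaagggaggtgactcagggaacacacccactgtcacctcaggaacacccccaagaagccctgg
Lgals9: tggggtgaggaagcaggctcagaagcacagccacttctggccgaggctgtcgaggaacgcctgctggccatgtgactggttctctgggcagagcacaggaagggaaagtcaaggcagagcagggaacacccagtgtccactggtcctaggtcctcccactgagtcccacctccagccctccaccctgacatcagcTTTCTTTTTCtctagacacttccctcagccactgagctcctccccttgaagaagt
Cybb: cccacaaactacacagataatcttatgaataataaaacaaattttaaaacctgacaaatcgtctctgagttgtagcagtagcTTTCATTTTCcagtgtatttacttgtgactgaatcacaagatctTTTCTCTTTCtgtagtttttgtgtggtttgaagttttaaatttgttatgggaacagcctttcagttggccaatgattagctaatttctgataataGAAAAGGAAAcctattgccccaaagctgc

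The letters of an AP-1 element, TGANTCA on both strands, stood in the promoters of 9 of the 111 genes that rose (8.11%), 6 of the 44 that fell (13.6%) and 311 of the 7798 tested genes (3.99%). NFAT letters (TGGAAA) stood in 18% of those that rose, 29.5% of those that fell and 14.5% of the tested genes, and the letters CACGTG, which MITF can bind, in 7.21%, 2.27% and 8.98%. Among the 10 genes that rose most, 7 had a promoter in the table and 2 of these held the AP-1 letters (28.6%), in capitals here. Among the 10 that fell most, 8 had a promoter and 2 held them (25%), Cybb and Ezr. In Rufy4 (chr1:74125291-74125540, plus strand) they begin 41 bases before the start and in Slc37a2 (chr9:37255739-37255988, minus strand) 107 bases before it.
Rufy4: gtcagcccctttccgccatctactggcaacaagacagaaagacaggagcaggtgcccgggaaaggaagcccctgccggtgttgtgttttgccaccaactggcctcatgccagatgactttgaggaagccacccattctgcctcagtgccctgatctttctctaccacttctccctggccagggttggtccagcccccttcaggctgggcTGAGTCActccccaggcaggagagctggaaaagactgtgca
Slc37a2: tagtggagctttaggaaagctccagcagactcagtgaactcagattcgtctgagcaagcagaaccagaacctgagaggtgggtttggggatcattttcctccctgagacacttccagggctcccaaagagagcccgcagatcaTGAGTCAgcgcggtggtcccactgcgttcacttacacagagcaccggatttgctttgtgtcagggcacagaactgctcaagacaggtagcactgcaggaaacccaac

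The other genes that fell most had different roles. Cybb, the catalytic subunit of the phagocyte NADPH oxidase, had 15.5 and 11.4 RPKM in EV+RANKL libraries, against 56.4 and 24.1 RPKM in RANKL libraries (difference -1.40 ± 0.316, adjusted p = 0.0436, limma). Cd300ld, a receptor of myeloid cells, had 19 and 18.6 RPKM in EV+RANKL libraries, against 46.4 and 38.3 RPKM in RANKL libraries. Its libraries were close together in both groups, and the difference was -1.12 ± 0.122 (adjusted p = 0.0015, limma). Themis2, a scaffold of Toll-like receptor signalling in macrophages, had 6.47 RPKM in each EV+RANKL library, against 16.8 and 10.8 RPKM in RANKL libraries, a difference of -0.96 ± 0.174 (adjusted p = 0.023, limma). Lyz1, a lysozyme, had 676 and 443 RPKM in EV+RANKL libraries, against 1365 and 885 RPKM in RANKL libraries, a difference of -1.0 ± 0.213 (adjusted p = 0.036, limma). Ezr, ezrin, which ties the membrane to actin, had 6.52 and 5.94 RPKM in EV+RANKL libraries, against 18.6 and 10.6 RPKM in RANKL libraries, a difference of -1.06 ± 0.179 (adjusted p = 0.0221, limma). In each of these genes both EV+RANKL libraries were below both RANKL libraries.

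**Figure D3:**
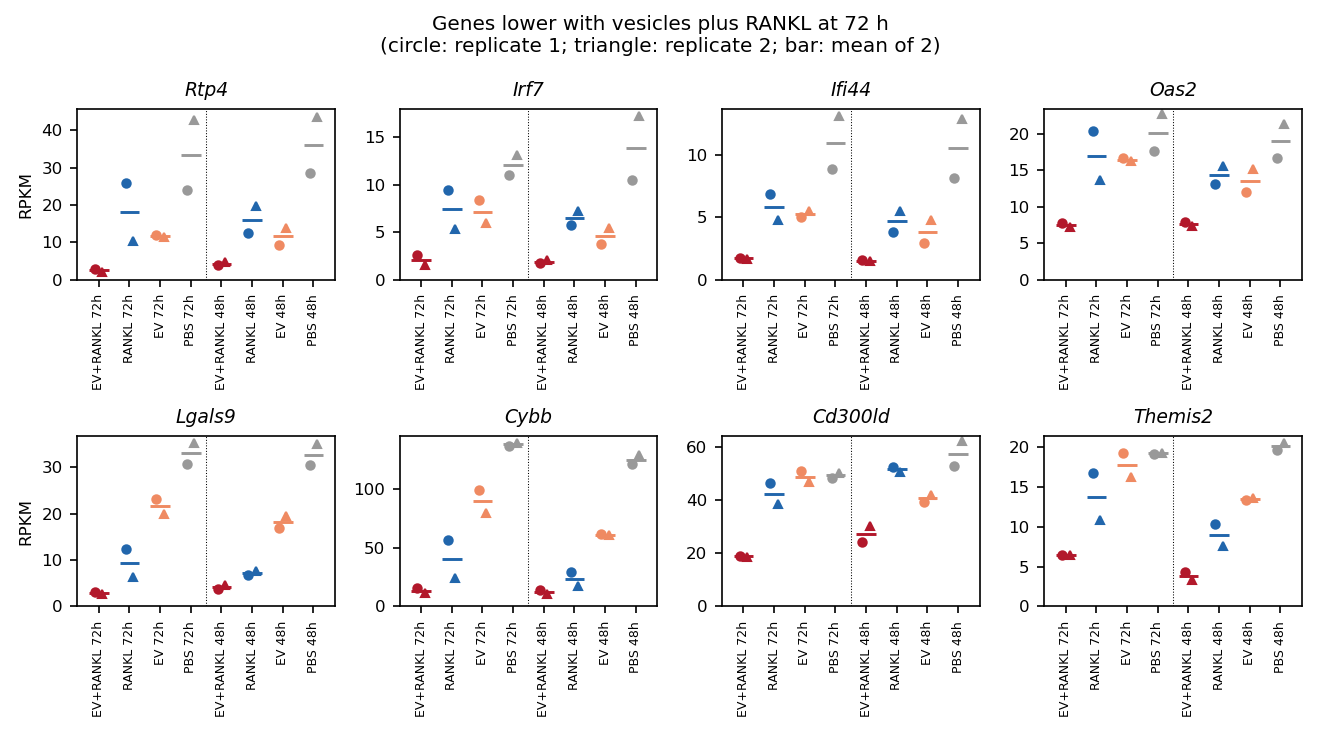
RPKM of 8 genes in all 8 groups, with circles for replicate 1, triangles for replicate 2 and bars for the mean of both; groups at 72 h are left of the dotted line and groups at 48 h right of it. In all 8 the EV+RANKL libraries at 72 h lie below the RANKL libraries at 72 h, as for Rtp4 (2.78 and 2.15 RPKM, against 26 and 10.3 RPKM) and Cd300ld (19 and 18.6 RPKM, against 46.4 and 38.3 RPKM).

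The list of 17 tested macrophage identity genes had no member called in either direction, and its median of -0.21 was -0.40 against RANKL replicate 1 and -0.06 against RANKL replicate 2. Lyz2, the lysozyme of macrophages, had 949 and 719 RPKM in EV+RANKL libraries, against 1612 and 1232 RPKM in RANKL libraries (adjusted p = 0.0662, limma). Cd14, a receptor for bacterial lipopolysaccharide, had 65.3 and 55.6 RPKM in EV+RANKL libraries, against 133 and 79.5 RPKM in RANKL libraries (adjusted p = 0.101, limma). Neither overlapped between groups. Of the 17 differences 14 were negative, against 53.5% over all tested genes. Both EV+RANKL libraries lay below both RANKL libraries in 8 of the 17 and above both in 3. None of 15 inflammatory cytokine and chemokine genes and none of 16 genes of MHC class I presentation was called.

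Cell cycle genes had negative medians, with 1 call. Over all tested genes 0.531% fell and 46.5% of the differences were positive. Of 20 mitotic genes 1 fell, none rose and no difference was positive, with a median of -0.32. It was Birc5, survivin, with 17.9 and 20 RPKM in EV+RANKL libraries, against 32.8 and 26.1 RPKM in RANKL libraries (difference -0.60 ± 0.128, adjusted p = 0.0362, limma). Of 20 genes of DNA replication none was called, 2 differences were positive and the median was -0.36. The medians of these lists were -0.31 and -0.35 against RANKL replicate 1, and -0.32 and -0.37 against RANKL replicate 2. The medians moved more with the EV+RANKL library: they were -0.15 and -0.14 without EV+RANKL replicate 1, and -0.51 and -0.60 without EV+RANKL replicate 2. The summed levels were 576 and 724 RPKM for mitotic genes in EV+RANKL libraries, against 879 and 812 RPKM in RANKL libraries. Calls of mitotic genes increased without RANKL replicate 2, as did those of all tested genes, and were lost without any other library.

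Of 21 glycolysis and hypoxia genes none was called, 20 differences were positive and the median was 0.37, with 0.34 and 0.35 against each RANKL library. In 16 of the 21 both EV+RANKL libraries lay above both RANKL libraries. Over all tested genes 46.5% of the differences were positive and 20.8% had both libraries above both. Vegfa, the vascular growth factor, had 8.47 and 5.85 RPKM in EV+RANKL libraries, against 2.08 and 2.12 RPKM in RANKL libraries (adjusted p = 0.0653, limma). Pgam1, a glycolytic enzyme, had 424 and 418 RPKM in EV+RANKL libraries, against 269 and 324 RPKM in RANKL libraries (adjusted p = 0.0566, limma). Sterol synthesis genes showed similar counts: of 22 tested, 20 differences were positive and 15 had both libraries above both. Of 78 cytosolic ribosomal protein genes none was called, and their median of 0.18 was 0.38 against RANKL replicate 1 and 0.01 against RANKL replicate 2. The 24 nuclear-encoded respiratory chain genes had no call and a median of 0.16, which was 0.41 against RANKL replicate 1 and -0.03 against RANKL replicate 2. Many members of both lists were called higher without RANKL replicate 2, in a fit that also called many more of all tested genes. No such calls appeared when another library was left out. None of 20 lysosomal genes was called, with a median of 0.25, which was 0.077 without EV+RANKL replicate 1 and 0.41 without EV+RANKL replicate 2. Of 18 immediate early and MAPK feedback genes 1 rose, where 1.3% of all tested genes rose. It was Spry1, an inhibitor of growth factor signalling (adjusted p = 0.0241, limma). Spry1 had 1.47 and 1.35 RPKM in EV+RANKL libraries, against 0.517 and 0.674 RPKM in RANKL libraries. The lists of sterol synthesis (median 0.16), lipid efflux (0.27), mitochondrially encoded genes (0.03), mitochondrial ribosomal proteins (-0.03), ribosome biogenesis (-0.13), the ATF4 response (-0.05), ER chaperones (-0.21) and NRF2 genes (-0.04) had no call.

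**Figure D4:**
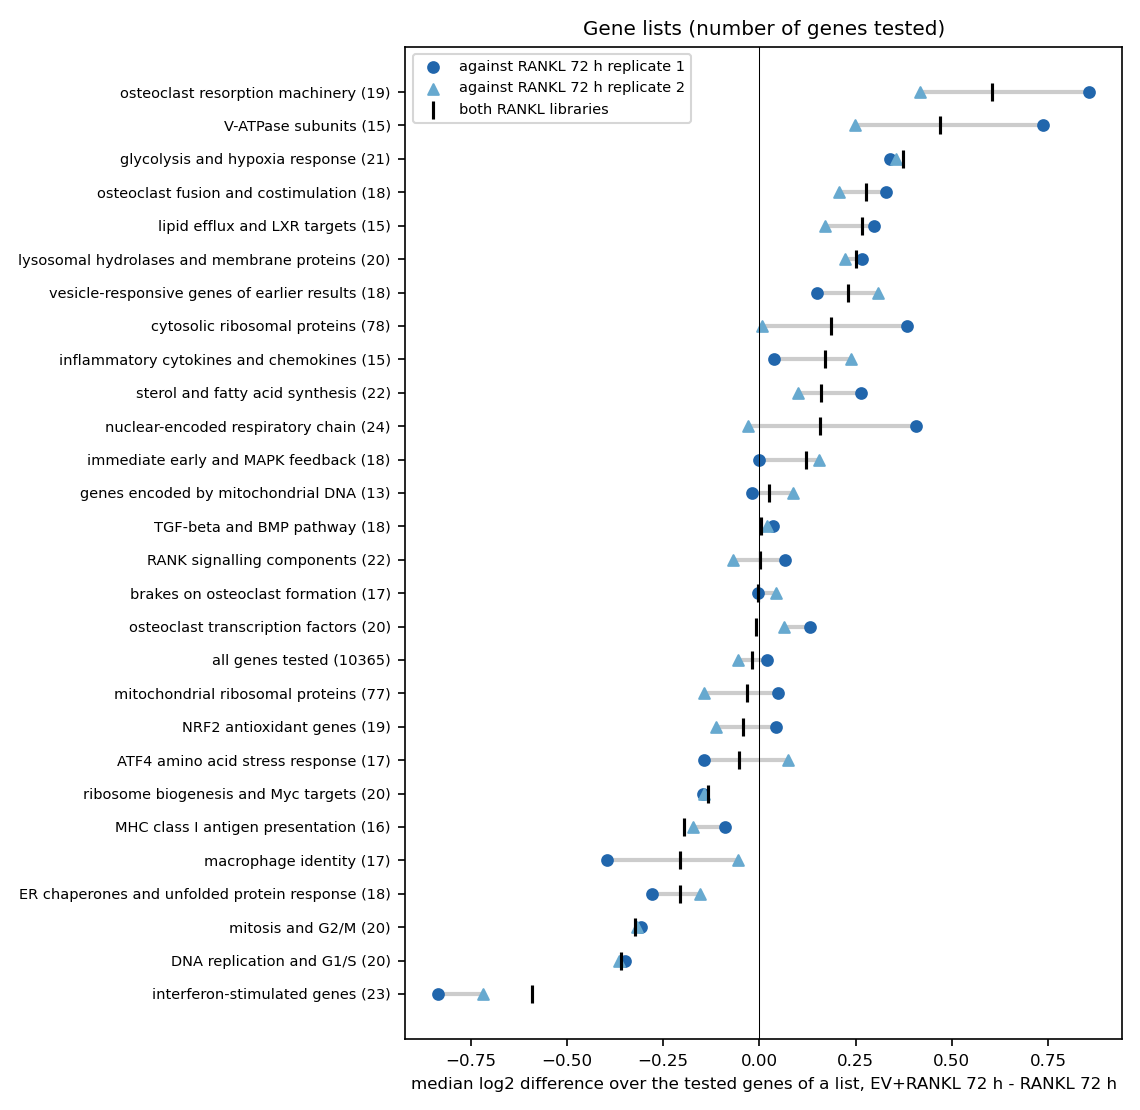
Median log2 difference, EV+RANKL minus RANKL at 72 h, over the tested genes of each list with at least 5 tested (number in brackets), against RANKL replicate 1 (circles), replicate 2 (triangles) and both (black ticks). Of the lists drawn, the interferon-stimulated genes are lowest at -0.59 and the resorption machinery highest at 0.61, and the resorption, V-ATPase, respiratory chain and cytosolic ribosomal lists move most with the choice of the RANKL library.

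The same addition of vesicles was measured in other libraries at 48 h, where EV+RANKL against RANKL gave 45 calls (0.434%), 28 higher (0.27%) and 17 lower (0.164%). Of the 135 genes that rose at 72 h, 133 had a positive difference at 48 h (98.5%) and 19 were called higher there. Of the 55 that fell at 72 h, 54 had a negative difference at 48 h (98.2%) and 7 were called lower. Over all tested genes the sign was the same in 65.4%. The median difference of the genes that rose was 0.72 at 72 h and 0.48 at 48 h, and that of the genes that fell was -0.74 and -0.58. Angptl2 had 7.21 and 7.28 RPKM in EV+RANKL libraries of 48 h, against 1.75 and 1.53 RPKM in RANKL libraries of 48 h. Acp5 had 209 and 168 RPKM in EV+RANKL libraries of 48 h, against 88 and 85.4 RPKM in RANKL libraries of 48 h. The interferon-stimulated genes had a median of -0.46 at 48 h with no call.

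Whether the vesicle effect under RANKL differed between 72 h and 48 h was tested as an interaction in the same limma fit. No gene passed (0 of 10365, 0.0%), with 375 at an unadjusted p below 0.05 (3.62%). Without RANKL replicate 2 of 72 h the same test called 90 genes. Among the genes of smallest p were Ms4a6c and Pop4, with negative interactions (-1.21 and -0.48). Also among them were Mfge8, a protein that bridges phagocytes to dying cells, and Ckb, the brain-type creatine kinase of mature osteoclasts. Their interactions were positive (0.70 and 0.98). Ms4a6c had 10 and 7.86 RPKM in EV+RANKL libraries of 72 h, against 18.1 and 9.64 RPKM in RANKL libraries of 72 h. At 48 h it had 6.24 and 5.83 RPKM in EV+RANKL libraries, against 4.21 and 2.7 RPKM in RANKL libraries. Mfge8 had 52.1 and 46.8 RPKM in EV+RANKL libraries of 72 h, against 24.3 and 32.2 RPKM in RANKL libraries of 72 h. At 48 h it had 35.2 and 33.3 RPKM in EV+RANKL libraries, against 31.7 and 32.2 RPKM in RANKL libraries. Ckb had 106 and 73.8 RPKM in EV+RANKL libraries of 72 h, against 48.4 and 69 RPKM in RANKL libraries of 72 h. At 48 h it had 39.1 and 30.3 RPKM in EV+RANKL libraries, against 49 and 41.1 RPKM in RANKL libraries. The adjusted p of each of these interactions was 0.921 in limma.

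Vesicles without RANKL for 72 h, against PBS for 72 h, gave 1895 calls (18.3%), 1083 higher (10.4%) and 812 lower (7.83%), in libraries that the comparison under RANKL does not use. Of the 135 genes that rose under RANKL, 125 had a positive difference without RANKL (92.6%) and 56 were called higher. Of the 55 that fell, 48 had a negative difference (87.3%) and 20 were called lower, and none of the 190 was called in the opposite direction. Over all tested genes the sign was the same in 73.7%.

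The difference between the vesicle effects with and without RANKL at 72 h, tested as an interaction, passed for Acp5 alone (1 of 10365, 0.00965%), with 959 genes at an unadjusted p below 0.05 (9.25%). Acp5 had 41.5 and 34 RPKM in EV libraries of 72 h, against 0.642 and 0.437 RPKM in PBS libraries of 72 h, a difference of 4.65 (adjusted p = 2.36e-06, limma). With RANKL the difference was 1.24, and the interaction was -3.41 ± 0.365 (adjusted p = 0.00524, limma). On the linear scale the gain was larger with RANKL, where the RANKL libraries started from 166 and 309 RPKM. Rab15, Atp2a3 and Cd300ld came next with an adjusted p of 0.0672 each in limma. Atp2a3 had 12.5 and 12 RPKM in EV libraries, against 3.3 and 3.3 RPKM in PBS libraries. With RANKL it had 26.2 and 25.5 RPKM in EV+RANKL libraries, against 17.7 and 23.2 RPKM in RANKL libraries. Rab15 had 0.314 and 0.538 RPKM in EV libraries, against 0.142 and 0 RPKM in PBS libraries. Cd300ld had 50.8 and 46.6 RPKM in EV libraries, against 48.2 and 50.3 RPKM in PBS libraries, where the libraries overlap. Without RANKL replicate 1 the interaction passed for 64 genes, without RANKL replicate 2 for 21, without EV replicate 2 for 14 and without EV replicate 1 for none. It passed for 3 genes without PBS replicate 1 and 2 without PBS replicate 2.

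**Figure D5:**
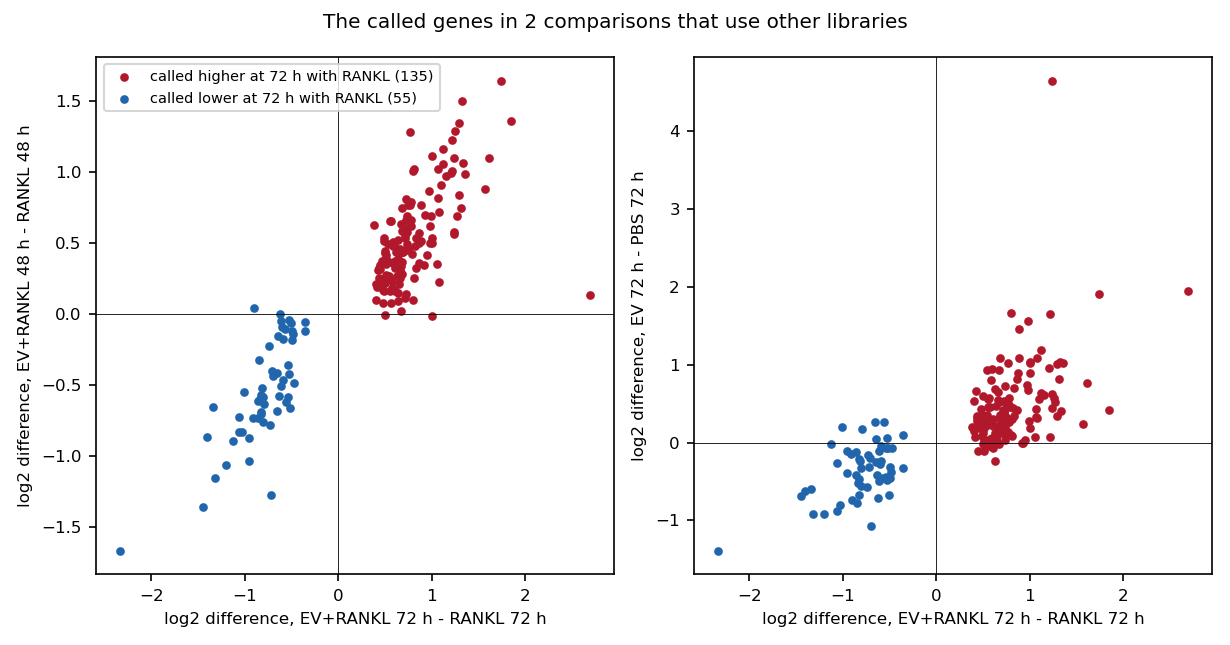
The 190 genes called at 72 h under RANKL, with their log2 difference there on both horizontal axes and, on the vertical axes, the difference EV+RANKL minus RANKL at 48 h (left) or EV minus PBS at 72 h (right). Of the 135 genes called higher, 133 lie above 0 on the left and 125 on the right; of the 55 called lower, 54 and 48 lie below 0.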

How the data were processed

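Total RNA of 16 libraries was made into TruSeq mRNA libraries, per the labels' protocols, and the submitters' processing notes list HISAT2, Partek and FastQC as tools. The builds in these notes are human ones (hg38, GRCh38), whereas the deposited table holds mouse symbols. Which mouse build and annotation were used is not given in the sources used here. The deposited values behave as log2(RPKM + 1), a scale found from the values and stated in no label. The 4 libraries of the comparison are set out with the results. The column of 1 EV+RANKL library of 48 h lacks the letter for RANKL, and only its group was taken from its name.

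Genes with a log2 value of 1 or more in at least 2 of 16 libraries were tested (10365 of 20490) with limma 3.58.1 in R 4.3.3, in 1 fit of 8 group means with a variance trend and 2-sided tests. Interactions were contrasts of that fit. Simulated data for this comparison held 10365 genes. In them 38 of 67 changes of 0.5 log2 (56.7%), 60 of 67 changes of 1 (89.6%) and 65 of 66 changes of 2 (98.5%) were recovered. There were 8 false calls. The simulated noise was normal, with 1 spread per gene shared by all libraries. Changes were put only into genes of higher level in RANKL libraries of 72 h. The measured RANKL libraries of 72 h differed more than those of any other group, so these rates may not hold for the data. With 2 libraries a group, an exact permutation test of 1 gene cannot go below p = 0.333. Tables and plots were made in Python 3.11.15 with pandas 2.3.3 and matplotlib 3.10.9.

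The genes named are the 10 largest rises and falls among called genes with a mean of at least 5 RPKM in the higher group and no overlap, those of largest gap between groups or largest difference between RANKL libraries, up to 4 of smallest p in each of 30 lists, those of smallest interaction p, and 24 preset genes of osteoclasts or of the vesicle response. Other members of a list are named where a count needs them. Predicted genes are counted only. A few genes under this rule are left out of the text. The comparison, the lists and this rule were chosen with earlier results of these data known. Other filters, pseudocounts, scalings, fits and left-out libraries were tried. Promoters come from RefSeq, build GRCm38.p6, with the first start listed for a gene.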

Additional observations from a re-analysis of the deposited data

Results flagged for a closer look

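The vesicle effect on Acp5 at 72 h differed between cells with and without RANKL, by -3.41 ± 0.365 on the log2(RPKM + 1) scale (SE; adjusted p = 0.00524, limma interaction over 10365 genes). The level was raised in each vesicle library over each library without vesicles, in both settings. The interaction kept its sign in every alternative run. It did not pass with a pseudocount of 5 (-1.72, adjusted p = 0.144), with only the 8 libraries of 72 h (adjusted p = 0.199) or without EV replicate 1 (-3.27, adjusted p = 0.0518). Over all its alternatives the adjusted p ran from 2.68e-04 to 0.199.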

How the results depend on the processing

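The count of 190 genes changed by vesicles under RANKL was 124 with a pseudocount of 0.1 (75 higher, 49 lower), 6 in a fit of the 8 libraries of 72 h alone, 8 in a fit of the 4 compared libraries alone and 9 with weights per library. With no filter it was 182, of which 76 were among the 190 and 98 had not been tested before. Leaving out 1 library gave 5 to 1815 genes. The other filter, pseudocount, scalings and spread setting gave 143 to 244, and all 190 kept their sign wherever they were tested. With 1 library left out this was fixed beforehand, since none of the 190 overlapped between groups. Fits of the 8 or the 4 libraries alone kept the same differences. With 8 or fewer libraries in the fit, or 1 library left out, fewer residual degrees of freedom remain; a lone library was assumed to vary like the other groups. The interaction with time (0 genes) passed for 22 with no filter, for 1 with the stricter filter of 5 RPKM, for 1 with a pseudocount of 5, for 1 after sum scaling without mitochondrial and ribosomal protein genes, and for 0 to 90 with 1 library left out. The interaction with RANKL at 72 h (1 gene) passed for 39 with no filter, for 3 with a pseudocount of 5, for 0 in a fit of the 8 libraries of 72 h alone, and for 0 to 64 with 1 library left out. The cause of these shifts was not tested.

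The replicate numbers were not taken as pairs, since the labels give no pairing and only 11 of 21 pairs of groups had a correlation of same-numbered deviations over 0.1. It ran from -0.039 to 0.529 and was 0.0615 for the compared groups, but at 72 h it was 0.529 between EV+RANKL and EV, 0.459 between EV and PBS and 0.398 between EV+RANKL and PBS. With a replicate block, and without the library of 48 h whose column carries no full name, the main count was 174 (148 among the 190), the time interaction passed for 0 genes and the RANKL interaction for 6.

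Of 64 named genes, not counting Ms4a6c, Pop4 and Atp2a3, 41 were called. Of these calls 4 remained without RANKL replicate 1, 41 without RANKL replicate 2, 3 without EV+RANKL replicate 1 and 9 without EV+RANKL replicate 2. Among genes that were not called, the sign turned when 1 library was left out for Mmp9 (-0.48 to 0.88), Tnfrsf11a (-0.15 to 0.087), Irf8 (-0.62 to 0.24) and Rn18s-rs5 (-1.84 to 1.44). Medians of the interferon, resorption, V-ATPase, glycolysis and cell cycle lists kept their sign in every alternative run. At this depth 1 read in a 1 kb transcript is worth 0.05 to 0.0544 RPKM, so few reads stand behind the values of low genes.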

Other observations

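Some genes of cell adhesion and of the actin skeleton are named here one by one, picked out after their values were seen; they are no list and have no count or test as a group, and Ezr, which ties the membrane to actin, fell. Itgav, the alpha-v integrin chain of the osteoclast's bone receptor, had 36.4 and 31.7 RPKM in EV+RANKL libraries, against 13.2 and 17.7 RPKM in RANKL libraries (difference 1.10 ± 0.22 SE, adjusted p = 0.0297, limma). Its partner Itgb3 had 1.48 and 1.02 RPKM in EV+RANKL libraries, against 0.5 and 1.16 RPKM in RANKL libraries, with overlap (adjusted p = 0.292, limma). Gsn, gelsolin, which cuts actin filaments, had 247 and 224 RPKM in EV+RANKL libraries, against 87 and 157 RPKM in RANKL libraries. Flnc, filamin C, an actin crosslinker, had 5.34 and 4.29 RPKM in EV+RANKL libraries, against 0.935 and 1.99 RPKM in RANKL libraries. Vcl, vinculin, had 19.5 and 18.4 RPKM in EV+RANKL libraries, against 9.51 and 14.4 RPKM in RANKL libraries. None of these 3 overlapped between groups. Tns3 (tensin 3), Parvb (parvin beta) and Actn1 (alpha-actinin 1), all proteins of focal contacts, rose by 0.71, 0.56 and 0.52. At 48 h the differences of Itgav, Gsn, Flnc, Vcl, Tns3, Parvb and Actn1 were 0.91, 0.50, 0.69, 0.21, 0.56, 0.66 and 0.39 in other libraries.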
